A study of Homo sapiens with 4 samples.

Results

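Cancer-testis antigens are proteins made in male germ cells, silent in most adult tissues and made again by many tumours. The families described here are GAGE, PAGE, XAGE, SSX, CTAG (the NY-ESO-1 genes) and MAGE. Most of these genes lie on chromosome X, many in near-identical copies, and DNA methylation of their promoters is known to keep them off in somatic cells. The MAGE superfamily shares a MAGE homology domain that binds E3 ubiquitin ligases. Its type I subfamilies (MAGE-A, -B and -C) are cancer-testis antigens, whereas its type II members (MAGE-D, -E, -F, -H and -L) are made in many normal tissues, the nervous system included.

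RNAseq was analysed in IMR-32, an established neuroblastoma cell line with amplified MYCN. In all 4 libraries the cells held a short hairpin RNA under doxycycline control. It targeted NeuroD1, a basic helix-loop-helix transcription factor of neural progenitors, in the 2 shNeuroD1 libraries and was a control in the 2 shControl libraries. Both groups received doxycycline at 1 µg/mL for 48 h. No label tells if replicates came from separate cultures, so the errors measure only the spread between these libraries. The headings of the study's own expression table give the same hairpin name for both knockdown libraries, so an effect of that single hairpin and of NeuroD1 loss cannot be told apart.

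Genes were taken by symbol, without pseudogenes, and 70 of the 60612 genes in the count table were members. Another 34 genes with a similar symbol were left out, of which 22 are pseudogenes, and no BAGE gene remained. The families were chosen by values of this same comparison, in which some of their genes had been seen to rise, so their levels and fold changes are a description. The calls below sort the members by fixed thresholds, and they are no independent evidence of a change. Library totals ranged from 14665210 to 16482463 counts. NEUROD1 itself was at 418.9 and 414.5 CPM (counts scaled by TMM to a library of 1000000) in shControl and at 63.7 and 58.2 CPM in shNeuroD1. The neuroblastoma markers HAND2, GATA3 and MYCN had counts in every library. Of the markers of other cells, the 5 immune genes summed to at most 0.657 CPM in any library, and 5 of the 7 germ cell genes, DAZL and DDX4 among them, had no count in any library. In the mesenchymal list the summed level went from 313 and 319 CPM to 601 and 594 CPM, mostly through vimentin (VIM). Of the collagens, COL1A1 went from 513 and 591 counts to 291 and 279, COL3A1 went from 0 and 2 counts to 15 and 18 and was called higher, and COL1A2 had at most 3 counts in a library. FN1 was lower by adjusted p, and DCN and PRRX1 had at most 5 counts in a library. The part of this in the results below was not tested.

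Most of the members had no counts. In all, 45 of the 70 were at 0 in every library, and 25 had at least 1 count. A near-identical copy at 0 need not be silent, as its reads may be assigned to another copy or to none. Only 12 had enough counts to be tested. Members together took 293 and 287 counts per 1000000 in shControl, and 607 and 586 in shNeuroD1. By edgeR, 6 of the 12 tested members were called higher in shNeuroD1 (adjusted p under 0.05, log2 fold change above 1), against 8.79% of all 17537 genes tested. They were GAGE2A, PAGE1, XAGE1A, MAGED2, MAGED4 and MAGEH1. The count called lower was 1 (SSX1), against a background of 5.14%. The 12 include GAGE2A, MAGED4B and XAGE1A, which had under 10 counts in each shControl library and reached the minimum only through shNeuroD1. A gene tested on these terms is bound to be higher there, and nothing is read from these shares. As RNA was taken from whole cultures, more cells with a transcript and more RNA per cell cannot be told apart.

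The 3 members with the largest fold changes, GAGE2A, XAGE1A and PAGE1, belong to related families, and their promoters showed a common feature. The windows below are those of RefSeq (GRCh38.p14), from 250 bases before to 50 after a RefSeq start, on the gene's strand. The window taken was that nearest the strongest assembled transcript start of these libraries or, without one, nearest the annotated start. They are shown because they hold the longest run of letters shared by all 3, printed in capitals.
GAGE2A, chrX:49589246-49589545, plus strand: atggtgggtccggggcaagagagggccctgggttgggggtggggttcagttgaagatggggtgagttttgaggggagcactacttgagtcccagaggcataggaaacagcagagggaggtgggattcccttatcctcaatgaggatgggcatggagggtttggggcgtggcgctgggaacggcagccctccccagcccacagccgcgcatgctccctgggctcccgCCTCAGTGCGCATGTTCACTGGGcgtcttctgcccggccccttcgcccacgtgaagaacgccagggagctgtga
PAGE1, chrX:49695935-49696234, minus strand: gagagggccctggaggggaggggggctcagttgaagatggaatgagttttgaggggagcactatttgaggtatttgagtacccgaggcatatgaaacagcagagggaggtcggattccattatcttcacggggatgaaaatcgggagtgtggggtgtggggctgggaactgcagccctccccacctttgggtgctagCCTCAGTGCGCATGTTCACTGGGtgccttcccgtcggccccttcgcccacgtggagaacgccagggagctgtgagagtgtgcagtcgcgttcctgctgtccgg
XAGE1A, chrX:52495558-52495857, plus strand: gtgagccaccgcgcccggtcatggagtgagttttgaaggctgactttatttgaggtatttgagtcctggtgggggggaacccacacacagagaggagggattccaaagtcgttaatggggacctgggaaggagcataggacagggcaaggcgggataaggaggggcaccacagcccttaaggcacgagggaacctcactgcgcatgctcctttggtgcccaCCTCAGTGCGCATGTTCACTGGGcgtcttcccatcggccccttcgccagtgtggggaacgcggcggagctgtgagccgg

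The shared run is 23 bases long and ends 2 bases before the start in GAGE2A, 31 before it in PAGE1 and 7 before it in XAGE1A. RefSeq windows were found for 61 of the 70 members. Some lie far from the annotated start of their gene, at 9517 bases for GAGE1, 9564 for GAGE12F and 188705 for GAGE12B. Counts of GAGE windows here and below include these. The run was in 14 of the 61 windows, namely 11 of the 12 GAGE windows, PAGE1, XAGE1A and XAGE1B. It was in no other gene, so these 14 made up 0.0513% of the 27305 genes with a window. The run was picked after the values had been seen, and the families are related by descent. The same run is present in members with no count, since 6 other GAGE windows, of genes at 0 counts, were identical to that of GAGE2A over all 300 bases. Whether those copies were silent cannot be told, as reads of near-identical copies cannot be assigned with certainty. The run contains the palindrome TGCGCA, which was in 49.2% of the members' windows and in 8.2% of all 35116 windows.

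GAGE2A (chrX:49589529-49596827, plus strand, GRCh38), a member of the GAGE family of small acidic germ cell proteins, gave 8 and 1 counts in shControl against 881 and 838 in shNeuroD1. This corresponds to 0.543 and 0.0630 CPM in shControl and 57.9 and 55.0 CPM in shNeuroD1, with no overlap between groups. The log2 fold change was 7.55 ± 0.20 (SE), the highest but 2 of all genes tested (rank 3). Its group counts, scaled for depth, stood in a ratio of 192 (95% interval 101 to 421). Such intervals cover counting error only, and the first shControl library held 8 of the 9 control counts. The log2 fold change was 9.62 without that library and 6.67 without the second.

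Transcripts of GAGE2A match the other GAGE copies over 96.0% to 100% of aligned bases, and 53.4% of its 100-base windows occur letter for letter in another copy. Reads can therefore not be assigned to 1 copy with certainty. Among the other GAGE rows, GAGE2E had 0 and 0 counts in shControl against 11 and 5 in shNeuroD1. With 3 counts over the group put in for shControl, the ratio was 5.36. The interval for counting error alone began at a ratio of 3.88. All 100-base windows of GAGE2E occur in another copy, so 0 counts set no limit and neither value is a lower bound. GAGE13 had 2 counts and GAGE10 had 1, all in the first shNeuroD1 library, and the other 8 rows were at 0. GAGE1, whose annotated span covers GAGE2A, had 13 and 0 counts in shControl against 13 and 12 in shNeuroD1. These rows outside GAGE2A were named after their values had been seen. GAGE2A took 97.5% of the GAGE counts in shNeuroD1.

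Summed over its 13 genes, GAGE had 21 and 1 counts in shControl against 908 and 855 in shNeuroD1, that is 1.42 and 0.0630 CPM against 59.7 and 56.1 CPM. The log2 fold change of the sum was 6.32 ± 0.21. It is below that of GAGE2A alone since the 13 GAGE1 counts of the first shControl library enter the sum. Leaving out that library raised it to 9.66, and leaving out the second lowered it to 5.33, so the size of the fold rests on the few control counts, and the direction did not change.

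PAGE1 (chrX:49687450-49695993, minus strand), of the prostate-associated gene family, lies in the same part of the short arm of X as GAGE2A and shares no 100-base window with another gene. It was at 2.51 and 2.52 CPM in shControl and at 23.8 and 24.2 CPM in shNeuroD1. The replicates differed by under 1 CPM in each group and the groups lay far apart, with a log2 fold change of 3.25 ± 0.15. Leaving out any library kept this value between 3.24 and 3.26. In contrast to the other genes of this group, PAGE1 had a measurable level in shControl, from 37 and 40 counts. Of the other 5 PAGE genes only PAGE5 had counts, 1 and 0 in shControl against 4 and 3 in shNeuroD1.

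XAGE1A (chrX:52495676-52500812, plus strand) and its copy XAGE1B, on opposite strands of a 25.1 kb stretch, encode a cancer-testis antigen also seen in lung tumours. XAGE1A had 0 and 1 counts in shControl against 68 and 70 in shNeuroD1, or 4.47 and 4.60 CPM in the latter. The ratio of the group counts was 139, and with 1 control count its 95% interval ran from 24.5 to 5522. XAGE1B had no count in shControl and 8 in each shNeuroD1 library. The 2 transcripts are 100% identical, so their sum is the safer value. It was 0 and 1 counts against 76 and 78, a ratio of 155 with an interval from 27.4 to 6158. XAGE5 had at most 2 counts in a library, and XAGE2 and XAGE3 had none.

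**Figure D1:**
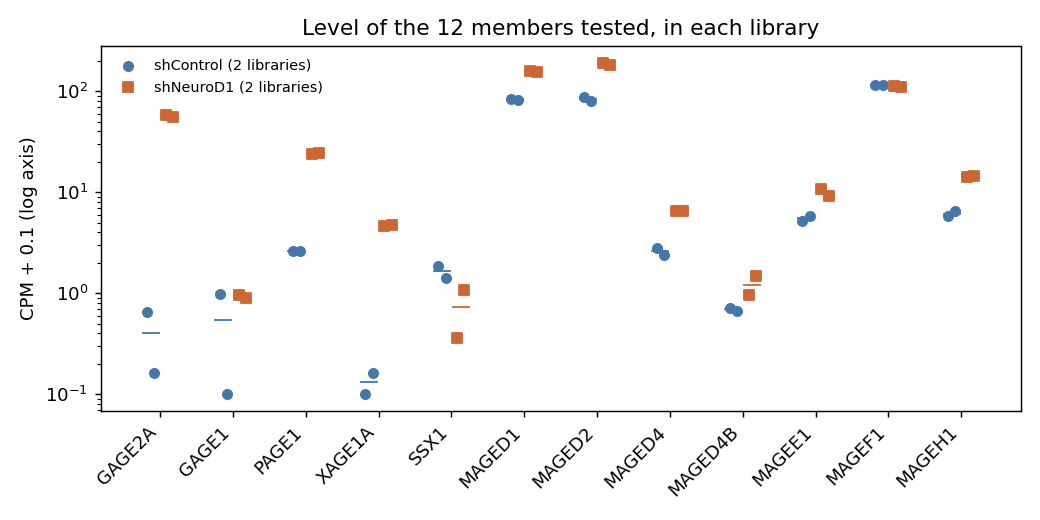
Level of each of the 12 tested members in each library, as CPM with 0.1 added, on a log axis. Circles are the 2 shControl libraries, squares the 2 shNeuroD1 libraries and short lines the group means. GAGE2A, PAGE1 and XAGE1A stand far above their shControl level, the MAGE-D genes, MAGEE1 and MAGEH1 show smaller differences, and MAGEF1 is near 115 CPM in shControl and 111 CPM in shNeuroD1.

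The deposited FPKM values of assembled transcripts (fragments scaled for transcript length and depth) gave the same directions for GAGE2A, PAGE1 and XAGE1A, with other sizes. Summed over its transcript starts, GAGE2A was at 2.56 FPKM in the first shControl library, was not listed in the second, and was at 130 and 131 FPKM in shNeuroD1. PAGE1 was at 2.69 and 2.50 FPKM in shControl and at 27.0 and 24.2 FPKM in shNeuroD1. XAGE1A was at 0.916 and 1.00 FPKM in shControl and at 27.1 and 24.3 FPKM in shNeuroD1, a ratio of means of 26.8. For XAGE1B this ratio was 29.4. The FPKM tables thus hold XAGE1 signal in shControl where the counts hold 1 read, and the handling of reads that match several copies was not stated for either. Of 41 starts and ends of members in these tables, 5 were listed in both shNeuroD1 libraries and in neither shControl library, against 2.6% of all 52919 starts and ends, and 0 the other way round, against 1.83%. Those 5 belonged to GAGE12G, GAGE2A, PAGE5 and SSX2B.

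SSX genes encode transcriptional repressors of germ cells, and SSX1 is known as a fusion partner of SS18 in synovial sarcoma. SSX1 (chrX:48255317-48267444, plus strand) was the only member called lower. It had 26 and 21 counts in shControl against 4 and 15 in shNeuroD1, that is 1.76 and 1.32 CPM against 0.263 and 0.985 CPM. The groups did not overlap, but the shNeuroD1 libraries differed by more than the gap between groups. The log2 fold change was -1.29 ± 0.46. The call was lost with DESeq2, with no filter on low counts, and without either shControl library or the first shNeuroD1 library, without which the log2 fold change was -0.64. It was -2.51 without the second shNeuroD1 library. Summed over the transcript starts assigned to it, SSX1 was at 0.748 and 0.961 FPKM in shControl and at 0 and 1.16 FPKM in shNeuroD1, so the groups overlapped. That sum includes a start outside the gene span. At the start inside it, SSX1 was at 0.748 and 0.544 FPKM in shControl. There it was not listed in the first shNeuroD1 library and at 0.423 FPKM in the second. The pseudogene SSX6P, which is no member, had 11 and 19 counts in shControl against 30 and 35 in shNeuroD1. SSX2 and SSX2B, which are 100% identical, had no count in shControl and together 10 and 4 in shNeuroD1. With 3 counts over the group put in for shControl, the ratio was 4.69. The interval for counting error alone began at a ratio of 3.34. Reads that match both copies may have been counted for neither, so these values are no lower bound. SSX3, SSX4, SSX4B and SSX7 had no count, and SSX5 had 1.

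NeuroD1 binds E-boxes (CANNTG), most often with the letters CAGATG or, as a second form, CAGCTG. The first of these, on either strand, was in 10 of the 61 member windows (16.4%), against 14.7% of all 35116 windows, and the second form in 3 (4.9%), against 17.9%. All 7 SSX windows held the first form, once each and from 64 to 185 bases before the RefSeq start. Of the tested members outside SSX that had a window, only MAGED1 did, and MAGEH1 had no window. The window of SSX1 is shown as it is the only member called lower, with CAGATG in capitals.
SSX1, chrX:48255142-48255441, plus strand: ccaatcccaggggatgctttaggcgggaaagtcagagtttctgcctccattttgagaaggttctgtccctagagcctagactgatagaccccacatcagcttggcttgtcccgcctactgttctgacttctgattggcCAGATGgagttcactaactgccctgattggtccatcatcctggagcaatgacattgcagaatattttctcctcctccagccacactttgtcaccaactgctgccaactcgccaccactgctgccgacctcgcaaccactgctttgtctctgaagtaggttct
The letters CAGATG begin 112 bases before the RefSeq start of SSX1. None of the GAGE, PAGE or XAGE windows held these letters, and another E-box, CACGTG, was in 12 of the 12 GAGE windows and 4 of the 6 PAGE windows. It was in 27.9% of member windows and 7.3% of all windows. All these E-boxes are cases of the general form, which was in 73.8% and 68.7%. Windows of one family are related, so their letters are not independent, and a match describes the letters only.

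The type II genes MAGED2, MAGED1 and MAGEF1 had the highest CPM of the members in every library. In 6 of the 7 type II genes tested both shNeuroD1 libraries lay above both shControl libraries, as in 38.4% of all genes tested. MAGED2, known for its role in salt transport in the fetal kidney, was at 86.8 and 80.7 CPM in shControl and at 192 and 183 CPM in shNeuroD1, a log2 fold change of 1.17 ± 0.05. MAGED1, also named NRAGE, an adaptor of the p75 neurotrophin receptor in neuronal cell death, was at 83.7 and 82.6 CPM in shControl and at 159 and 153 CPM in shNeuroD1. Its log2 fold change of 0.91 ± 0.05 lay just under the limit of 1 and that of MAGED2 just above it. Both groups were well apart in each gene, and the replicates differed by less than 10 CPM.

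MAGED4 was at 2.71 and 2.27 CPM in shControl and at 6.38 and 6.37 CPM in shNeuroD1 (log2 fold change 1.36 ± 0.21). Its copy MAGED4B, 100% identical over the aligned transcript, had 9 and 9 counts against 13 and 21. Summed, the pair was at 3.32 and 2.83 CPM in shControl and at 7.23 and 7.75 CPM in shNeuroD1, a log2 fold change of 1.28 ± 0.20. In the FPKM tables the copies stood nearer to each other, with MAGED4B at 4.62 and 4.43 FPKM in shControl and MAGED4 at 4.40 and 5.62 FPKM. MAGEH1 was at 5.70 and 6.36 CPM in shControl and at 13.9 and 14.5 CPM in shNeuroD1 (log2 fold change 1.24 ± 0.14).

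MAGEE1, which binds a dystrobrevin of the dystrophin complex, was at 5.09 and 5.73 CPM in shControl and at 10.6 and 9.00 CPM in shNeuroD1. Its log2 fold change was 0.86 ± 0.16, under the limit of 1. MAGEF1, which lies on chromosome 3 and promotes turnover of an iron-sulphur assembly factor, was at 115.1 and 115.5 CPM in shControl and at 111.6 and 109.9 CPM in shNeuroD1. Its log2 fold change was -0.06 ± 0.05, and its sign turned to 0.05 with scaling to library size alone. MAGEF1 was the only tested member that is not on chromosome X. MAGEL2, an imprinted gene of chromosome 15 that is lost in Prader-Willi syndrome, had no count in any library.

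**Figure D2:**
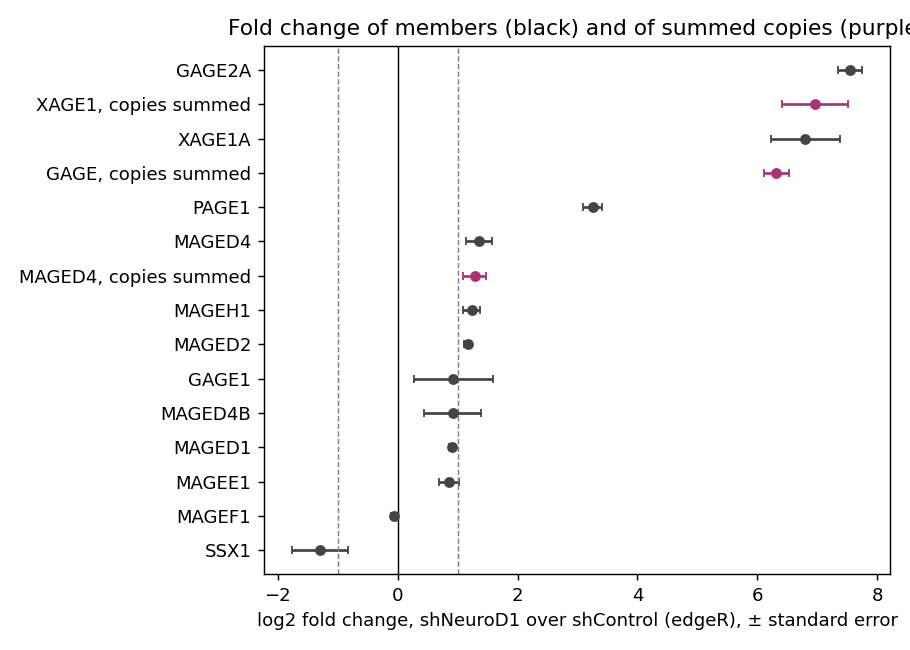
Log2 fold change of shNeuroD1 over shControl from edgeR with its standard error, for the 12 tested members (black) and the 3 sums of near-identical copies that were tested (purple). Dashed lines mark a log2 fold change of 1 in either direction. GAGE2A at 7.55, XAGE1A and PAGE1 at 3.25 are far to the right, the MAGE-D genes, MAGEE1 and MAGEH1 lie between 0.86 and 1.36, and SSX1 is at -1.29.

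Type I MAGE genes were hardly detected. The 12 MAGE-A genes had 2, 1, 0 and 2 counts in the 4 libraries, from MAGEA8 and MAGEA11. The 3 MAGE-C genes had 1 count in all, from MAGEC3, and the 11 MAGE-B genes and the 3 CTAG genes had none. In a library, 0 counts allow a level of up to 0.189 to 0.204 CPM (3 counts). This limit holds only for genes whose reads can be told from those of other genes. Reads of near-identical copies may be assigned to another copy or to none, so 0 counts set no limit there. The best known vaccine targets among the genes at 0, MAGEA3, MAGEA4 and CTAG1B, were at 0 throughout. Of their transcript windows, 83.2% for CTAG1B, 36.1% for MAGEA3 and none for MAGEA4 occur letter for letter in another gene.

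The order of levels per exon length changed with knockdown. In shControl, MAGEF1 was highest of the members at 70.3 and 70.6 CPM per kb of exon, followed by MAGED2 at 29.5 and 27.5 and MAGED1 at 13.9 and 13.7 CPM per kb. GAGE2A was at 1.03 and 0.119 CPM per kb. In shNeuroD1, GAGE2A was highest at 109.7 and 104.2 CPM per kb. MAGEF1 at 68.2 and 67.2 and MAGED2 at 65.4 and 62.4 CPM per kb came next, and the gap between these 2 was close to the spread between replicates. PAGE1 followed at 35.8 and 36.4 CPM per kb, above MAGED1 at 26.5 and 25.5 CPM per kb. Exon length here is that of all annotated exons of a gene, so the order depends on the annotation. By the FPKM of assembled transcripts the order of these 2 was reversed in shNeuroD1. MAGED1 was at 41.3 and 35.6 FPKM there, and PAGE1 at 27.0 and 24.2 FPKM.

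**Figure D3:**
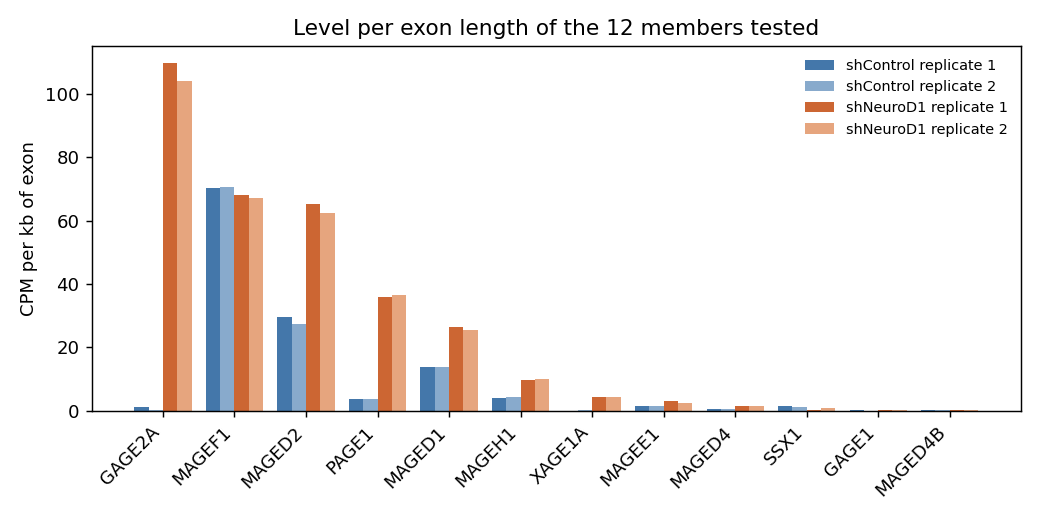
Level of the 12 tested members per exon length (CPM per kb of exon), with 1 bar for each of the 4 libraries, ordered by the mean of the shNeuroD1 libraries. GAGE2A goes from at most 1.03 in shControl to over 104 in shNeuroD1, while MAGEF1 stays between 67.2 and 70.6.

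In the FPKM tables MAGED2 and MAGED1 each had a pair of main transcript starts. For MAGED2 the starts lie 0.74 kb apart. The upstream start was at 16.9 and 13.4 FPKM in shControl and at 18.9 and 22.6 FPKM in shNeuroD1, and the downstream start at 8.88 and 11.3 FPKM against 23.7 and 31.1 FPKM. The downstream start thus gave 34.4% and 45.7% of the pair in shControl and 55.6% and 57.9% in shNeuroD1. For MAGED1, with starts 90.53 kb apart, the downstream start gave 92.7% and 89.8% in shControl and 89.8% and 84.0% in shNeuroD1, and those groups met. These assembled starts were looked at after the values had been seen, and the test of a shift was not run.

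Genes near the GAGE, PAGE and XAGE1 loci were compared next. Of 38 genes that are no members, tested within 1 Mb of the span from GAGE10 to PAGE1, 15 were called higher by edgeR and none was called lower, where 33 had an adjusted p under 0.05 and all of these were higher. Their median log2 fold change was 0.84. DESeq2 called 10 higher and none lower. Within 1 Mb of the XAGE1 pair, 7 of 14 such genes were called higher and none lower, with a median of 1.02. The background was 8.43% called higher over the other chromosomes and 15.5% of 562 genes on chromosome X without the members (5.39% and 11.9% by DESeq2). By adjusted p alone, 249 of those 562 genes were higher and 109 lower. Of all genes tested, 26.8% were higher and 28.2% lower on that rule. The windows were set around members after their values had been seen, and the counts of neighbours are not independent of that.

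The fold changes of GAGE2A, PAGE1 and XAGE1A lay above those of all these neighbours, which ranged up to 2.23 on the log2 scale. CLCN5, a chloride transporter gene with its start 333.1 kb from that of GAGE2A, had a log2 fold change of 1.42 ± 0.06 (adjusted p = 1.2e-19), and USP27X, a deubiquitinase gene, one of 1.29 ± 0.17 (adjusted p = 9.5e-08). Between GAGE2A and PAGE1, the pseudogene VDAC1P2 was at 0.09 ± 0.41 (adjusted p = 0.88). SUV39H1, a histone methyltransferase gene in this window, was the only one of the 38 below 0, at -0.11 ± 0.12 (adjusted p = 0.44), and all 38 were above 0 with scaling to library size alone.

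**Figure D4:**
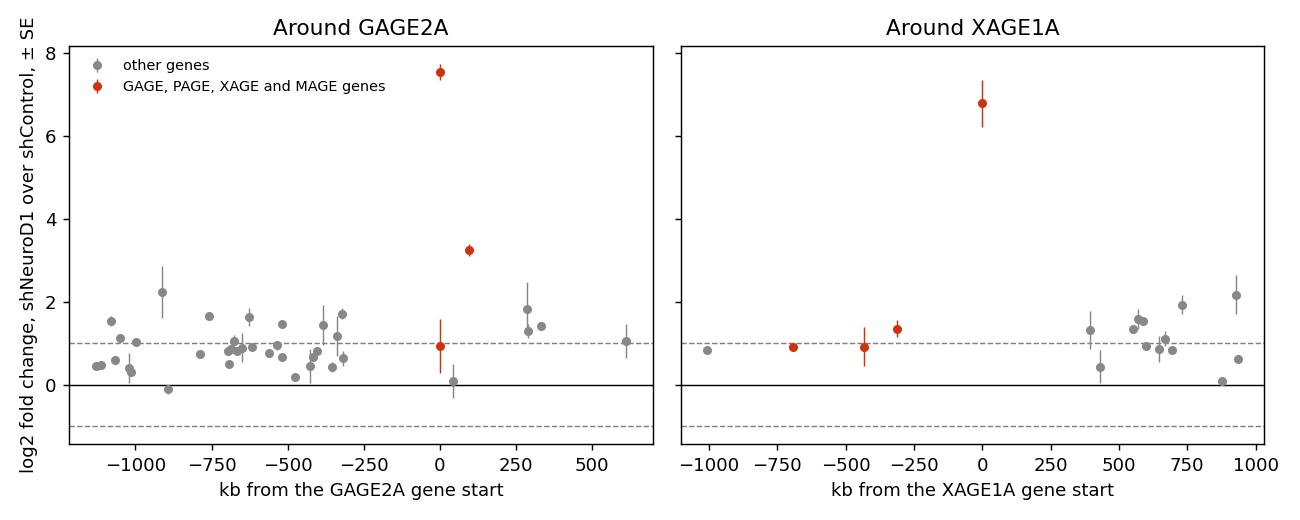
Log2 fold change with its standard error of every tested gene within 1 Mb of the GAGE and PAGE1 loci (left) and of the XAGE1 pair (right), against the distance in kb from the start of GAGE2A or XAGE1A. Red points are members and grey points other genes. Most grey points lie between 0 and 2, with medians of 0.84 and 1.02, under GAGE2A, XAGE1A and PAGE1.

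Other cancer-testis and germline genes outside these families gave no call. Of 71 genes on that list 70 were in the table and 49 of these had no count in any library, among them SYCP1 of the synaptonemal complex. With edgeR 0 of the 9 tested were called in either direction, where the background of 8.79% and 5.14% gives few calls among 9 genes. DESeq2 also called 0. At an unadjusted p under 0.05 there were 2, and both had an adjusted p under 0.05. They were PRAME, a substrate receptor of a ubiquitin ligase (log2 fold change 0.69 ± 0.28, adjusted p = 0.037), and TEX15 (0.20 ± 0.08, adjusted p = 0.030). CTCFL, the testis paralogue of CTCF, had 1 and 3 counts in shControl against 8 and 8 in shNeuroD1, too few to be tested.

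Genes on a list of factors in the silencing of germline genes fell in part. Of 21 tested genes, 2 were called lower, UHRF1 and MGA, and none higher, against a background of 5.14% and 8.79%. A further 12 were lower and 2 higher by adjusted p alone, so 14 of 21 were lower on that rule against a background of 28.2%. The list also holds TET1, TET2 and TET3, which act against DNA methylation and are not silencing factors in that sense. The 14 include TET1 (log2 fold change -0.29 ± 0.07, adjusted p = 0.001) and TET3 (-0.17 ± 0.05, adjusted p = 0.0042). UHRF1, which brings the maintenance DNA methyltransferase to replicated DNA, was at 151.2 and 154.0 CPM in shControl and at 39.6 and 45.1 CPM in shNeuroD1 (log2 fold change -1.85 ± 0.06, adjusted p = 1.5e-22). DNMT1, that methyltransferase, was at 311 and 302 CPM against 181 and 176 CPM (log2 fold change -0.78 ± 0.04, adjusted p = 3.2e-16). DNMT3A, which sets new methylation, rose by 0.26 ± 0.04 on the log2 scale (adjusted p = 4.6e-06), while DNMT3B was at -0.19 ± 0.10 (adjusted p = 0.088).

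MGA, the scaffold of the Polycomb complex that silences meiotic genes, was at 42.6 and 49.4 CPM in shControl and at 20.0 and 22.4 CPM in shNeuroD1 (log2 fold change -1.12 ± 0.09, adjusted p = 1.1e-12). PCGF6, E2F6, L3MBTL2 and MAX, of the same complex, were also lower by adjusted p (at most 0.017). Their log2 fold changes were -0.90 ± 0.10, -0.79 ± 0.06, -0.20 ± 0.07 and -0.20 ± 0.06, in that order. Elsewhere on the list, EHMT1, EHMT2 and HDAC1 were at -0.04 ± 0.05, -0.03 ± 0.05 and -0.04 ± 0.07 (adjusted p at least 0.55). HDAC2 was lower, at -0.22 ± 0.04 (adjusted p = 1.7e-05). With scaling to library size alone, 11 of the 21 were lower by adjusted p in place of 14. UHRF1 and DNMT1 are known to peak in S phase. Of genes of dividing cells, looked at after the values were seen, PCNA went from 308 and 284 CPM to 109 and 117 CPM, MCM2 from 177 and 176 CPM to 77.4 and 78.6 CPM, and MKI67 from 408 and 451 CPM to 359 and 363 CPM. The part of cell division in the fall of the silencing factors was not tested.

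**Figure D5:**
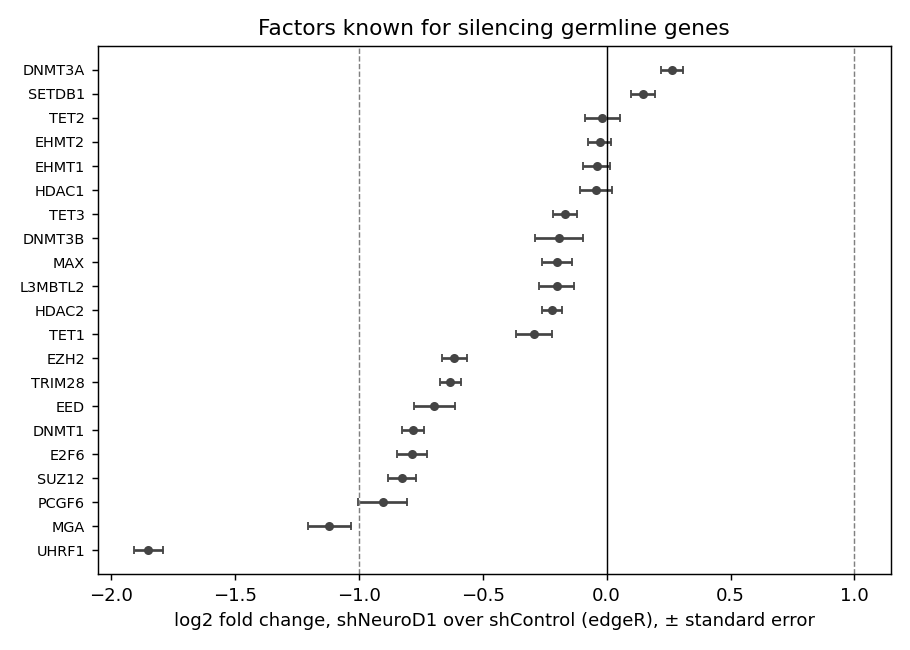
Log2 fold change of shNeuroD1 over shControl from edgeR, with its standard error, for the 21 tested genes of the silencing list, TET1, TET2 and TET3 included. UHRF1 at -1.85 and MGA at -1.12 are beyond the dashed line at a log2 fold change of 1 in size, and DNMT3A at 0.26 is the highest.

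Known partners of MAGE proteins were tested last. Of 13, 1 was called higher and 1 lower, near the background of 8.79% and 5.14%. NGFR, the p75 neurotrophin receptor bound by MAGED1, was at 86.1 and 86.5 CPM in shControl and at 4.54 and 4.01 CPM in shNeuroD1 (log2 fold change -4.33 ± 0.10, adjusted p = 2.1e-26). DLX5, a homeodomain factor bound by MAGED1, was at 7.26 and 5.73 CPM against 14.1 and 14.3 CPM (1.13 ± 0.15, adjusted p = 6e-08), a call that was lost without the second shControl library. TRIM28, the ligase partner of MAGE-A and MAGE-C proteins, was lower at -0.63 ± 0.04 (adjusted p = 4.7e-14). NSMCE3, a MAGE protein of the SMC5/6 complex under another name, was at 0.02 ± 0.10 (adjusted p = 0.90).

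The imprinted neighbours of MAGEL2 on chromosome 15 gave no call, with 3 of 6 tested. SNRPN was lower by adjusted p alone (log2 fold change -0.56 ± 0.06, adjusted p = 3.9e-10). NDN, the necdin gene and another type II MAGE relative, had 0, 1, 0 and 1 counts in the 4 libraries, within the floor of 3 counts in each library.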

How the data were processed

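The authors trimmed, aligned and counted paired-end reads. Per the submitters' processing notes, cutadapt 1.9.1, HISAT2 2.0.1, HTSeq 0.6.1 and DESeq2 were used with build hg38. Strand and the handling of multi-mapped reads in counting were not given in the sources used here, so near-identical or overlapping genes are uncertain. The deposited table held raw counts of reads for 60612 Ensembl genes, with 0% of counts in rows without a gene, and for each library FPKM values of assembled transcript starts, ends and splicing events, listed only above 0.

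The counts were fitted with edgeR 4.0.16 in R 4.3.3 (filterByExpr with minimum count 10, TMM, quasi-likelihood F test, two-sided, Benjamini-Hochberg over 17537 genes). The SE is the log2 fold change divided by the square root of F. Alternatives included DESeq2 1.42.0 and limma 3.58.1 on log2(FPKM + 1). The scripts were tested on simulated data. Coordinates and exon lengths are those of GENCODE 29. Members with a mean of at least 1 CPM or past both thresholds were named, as were at most 5 called genes of each other list and NDN, NSMCE3, DNMT1 and UHRF1. Further genes were named after their values were seen. Members and lists were chosen with earlier results of these data known.

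The study's own fold changes and p-values were not used, and 1 marker gene is not reported here.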

Additional observations from a re-analysis of the deposited data

Results flagged for a closer look

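In the FPKM tables of assembled transcripts, which are separate from the read counts, a GAGE transcript start at the position of GAGE12J was flagged. It was at 46.1 and 35.0 FPKM in the shNeuroD1 libraries and was listed in neither shControl library. This start is among those counted above as listed only in shNeuroD1. It was singled out because it is signal outside the main counts and above the control libraries. The tables assign this start to GAGE12G, and neither GAGE12G nor GAGE12J had a count in any library. Another start assigned to GAGE12G was listed only in the second shNeuroD1 library, at 49.9 FPKM. Which copy the reads came from was not tested.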

How the results depend on the processing

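Replicate numbers did not pair the libraries (correlation of same-numbered deviations 0.0158). A fit with the replicate block still called 6 members higher and 1 lower, and it left the counts called in the 4 other lists and near the GAGE, PAGE1 and XAGE1 loci as they were. The count of members called higher ranged from 4 (glmTreat against a log2 fold change of 1, and limma on log2(FPKM + 0.1)) to 8 (no filter on low counts, and adjusted p alone), and from 6 to 7 without any 1 library. The members tested differed, with 9 under limma, 12 in the fit reported and 25 with no filter. The call lower, SSX1, went to 0 with no filter, DESeq2 and glmTreat, and lay between 0 and 1 without any 1 library. The cause was not tested. With limma on either FPKM scale the count was 0 because SSX1 had too low an FPKM to be tested. For the summed GAGE copies the log2 fold change was 8.56 with limma on log2(FPKM + 0.1), where the adjusted p missed 0.05, and 0.93 for GAGE1 when rows were kept apart, while it ran from 5.33 to 9.66 without any 1 library. For XAGE1A it ran from 5.99 without the first shControl library to 9.09 without the second, which held its only control count. MAGEF1 turned to 0.054 with library size alone, which moved the median of all genes to 0.12. With limma on log2(FPKM + 0.1), GAGE2A was at 7.98 and missed that limit too, as MAGED2 and MAGED4 did on either FPKM scale.

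With adjusted p alone, 2 of 9 other cancer-testis genes were higher, and the 21 genes of the silencing list gave 2 higher and 14 lower. The 13 partners gave 2 higher and 4 lower, and the 3 imprinted genes 1 lower. On that rule 26.8% of all genes tested were higher and 28.2% lower, so little is read from the counts in the small lists. Silencing factors called lower went to 1 with glmTreat and with limma on either FPKM scale. Partners called higher went to 0 with glmTreat and limma on either scale, and lay between 0 and 1 without any 1 library. Alternatives for these last 3 lists were chosen after seeing the data. At this depth, genes at 0 to 3 counts in a library stay undecided.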

Other observations

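CpG counts of the RefSeq promoter windows differed between the families. The median window held 14 CpG sites over all 35116 windows, 22.5 in the 4 MAGE-D windows, 13 in the 12 GAGE windows and 8 in the 10 MAGE-B windows. The median was 12 both in the 23 windows of members with counts and in the 38 windows of members without, while the median CpG ratio, observed over expected from base composition, was 0.54 and 0.44. These values were not tested.

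GAGE1 had 13 counts in the first shControl library and 0 in the second, and GAGE2A had 8 and 1. Both shNeuroD1 libraries held 13 and 12 GAGE1 counts.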
